A study of Mus musculus with 28 samples.

Results

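The genes described here are 10 transcripts that mark lipid-associated macrophages: Trem2, Cd9, Gpnmb, Lgals3, Spp1, Itgax, Ctsd, Fabp5, Atp6v0d2 and Mmp12. They were taken from a named list, and no measured value enters the rule, but the list was chosen with earlier results of these data known. All 10 were found, once each, among 29330 gene identifiers in 1 table and 55891 in each of the other 4, and all 10 passed the filter on low values in each table. They were followed through bulk RNA-seq libraries of mouse fat in which control mice (genotype label WT) were compared with mice lacking Fgf13, a fibroblast growth factor homologous factor that stays inside the cell, in adipose tissue. The 28 libraries (15 control, 13 knockout) form 5 sets. Inducible knockout was sampled in epididymal white fat (ieWAT, 3 control and 3 knockout libraries) and in subcutaneous white fat (isWAT, 3 and 2). Constitutive knockout was sampled in subcutaneous white fat (sWAT, 3 and 3) and in brown fat (BAT, 3 and 2). Controls and knockouts of these 4 sets were obese mice that had eaten a high-fat diet for 20 weeks. The last set, epididymal fat again (eWAT, 3 and 3), has no knockout type and no diet in the series text. Which strain, age and Cre driver were used is not stated in the labels used here. The labels do not say that libraries came from separate animals, so a p covers no more than the spread of these samples, which may be technical.

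Lipid-associated macrophages are the macrophages that gather around dying, lipid-laden adipocytes in obese fat and form crown-like structures. They carry the lipid receptor Trem2, take up lipid released by adipocytes and break it down in a large lysosomal compartment. Resident macrophages of lean fat instead carry genes such as Lyve1, Mrc1 and Cd163. Several of the 10 transcripts, Ctsd, Cd9, Fabp5 and Lgals3 among them, are also made by adipocytes, stromal or other cells, so in whole tissue they are less specific than Trem2, Gpnmb, Itgax, Atp6v0d2 and Mmp12.

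By role, the list holds surface proteins, a cytokine and a lectin, lysosomal proteins, a lipid carrier and a protease. Positions are those of the protein-coding genes in GENCODE M21 on GRCm38, since the build behind the files is not given in the sources used here. Trem2 (chr17:48346401-48354147, plus strand) encodes a myeloid receptor for lipids and lipoproteins that signals through the adaptor Tyrobp. Cd9 (chr6:125460266-125494791, minus strand) encodes a tetraspanin of the cell surface, and Itgax (chr7:128129547-128150657, plus strand) encodes CD11c, an integrin alpha chain. Gpnmb (chr6:49036546-49070929, plus strand) encodes a transmembrane glycoprotein of lysosomes and melanosomes. Spp1 (chr5:104435118-104441050, plus strand) encodes osteopontin, a secreted ligand of integrins and CD44, and Lgals3 (chr14:47367751-47386160, plus strand) encodes galectin-3, a lectin for beta-galactosides. Ctsd (chr7:142375911-142388038, minus strand) encodes the lysosomal protease cathepsin D. Atp6v0d2 (chr4:19876841-19922605, minus strand) encodes a subunit of the proton pump that acidifies lysosomes, with an isoform restricted to few cell types. Fabp5 (chr3:10012548-10016607, plus strand) encodes a cytosolic carrier of fatty acids, and Mmp12 (chr9:7344381-7369499, plus strand) encodes macrophage elastase.

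The start regions of the genes were read for short motifs because most of the list moved together from library to library, as the values below show. RefSeq windows on GRCm38.p6, 250 bases before to 50 after a start, were found for 8 of the 10 genes, with none used here for Fabp5 and Atp6v0d2. Both strands were searched for TGANTCA (the core bound by AP-1 factors), CACGTG and CATGTG (E-boxes, bound by factors of the TFEB and MITF family among others) and GAGGAAG (a core bound by PU.1), and no 2 matches overlapped. The 8 genes have 10 windows, since Spp1 and Mmp12 have 2 each. TGANTCA was present in 4 of the 10 windows (Gpnmb, Trem2, Itgax and Mmp12) and in 7.81% of all 32851 windows of that length. CACGTG stood at 2 places in 1 of the 10 windows, that of Ctsd, and in 7.15% of all windows. CATGTG was found in 2 of the 10 windows (Cd9 and Mmp12, beside 14.2% of all windows), and GAGGAAG in 3 (Spp1, Mmp12 and Trem2, beside 13.6%). The 5 windows with TGANTCA or CACGTG are shown 5′ to 3′ on the strand of the gene, with matches to any of the 4 motifs in capitals. Positions count from the start site, and a match describes the letters only.
Gpnmb, plus strand, chr6:49036268-49036567, TGANTCA from position 9: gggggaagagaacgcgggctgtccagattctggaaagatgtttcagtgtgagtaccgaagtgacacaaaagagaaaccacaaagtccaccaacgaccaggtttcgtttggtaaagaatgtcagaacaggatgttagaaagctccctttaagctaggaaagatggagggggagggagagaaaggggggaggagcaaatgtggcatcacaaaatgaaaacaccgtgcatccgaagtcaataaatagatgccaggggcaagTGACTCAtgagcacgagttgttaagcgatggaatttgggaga
Trem2, plus strand, chr17:48346151-48346450, TGANTCA from position -9: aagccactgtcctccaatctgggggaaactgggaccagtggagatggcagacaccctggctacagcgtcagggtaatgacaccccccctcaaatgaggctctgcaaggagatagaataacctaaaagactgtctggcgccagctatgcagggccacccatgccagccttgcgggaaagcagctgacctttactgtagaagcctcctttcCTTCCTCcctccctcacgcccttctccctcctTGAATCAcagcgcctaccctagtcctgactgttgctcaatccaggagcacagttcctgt
Itgax, plus strand, chr7:128129300-128129599, TGANTCA from position -56: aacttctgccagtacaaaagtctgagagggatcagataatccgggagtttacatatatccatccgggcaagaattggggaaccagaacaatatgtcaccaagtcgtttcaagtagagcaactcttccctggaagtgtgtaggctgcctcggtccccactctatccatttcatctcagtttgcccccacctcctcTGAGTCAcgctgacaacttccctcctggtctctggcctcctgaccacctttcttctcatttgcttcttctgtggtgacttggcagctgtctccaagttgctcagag
Mmp12, plus strand, second of 2 windows, chr9:7347124-7347423, TGANTCA from position -44: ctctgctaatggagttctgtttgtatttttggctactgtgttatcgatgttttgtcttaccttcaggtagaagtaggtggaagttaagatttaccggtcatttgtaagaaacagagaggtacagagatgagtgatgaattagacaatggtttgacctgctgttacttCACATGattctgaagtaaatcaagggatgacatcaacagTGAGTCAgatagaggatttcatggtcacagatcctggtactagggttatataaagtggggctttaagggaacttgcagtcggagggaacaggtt
Ctsd, minus strand, chr7:142387778-142388077, CACGTG from positions -245 and -98: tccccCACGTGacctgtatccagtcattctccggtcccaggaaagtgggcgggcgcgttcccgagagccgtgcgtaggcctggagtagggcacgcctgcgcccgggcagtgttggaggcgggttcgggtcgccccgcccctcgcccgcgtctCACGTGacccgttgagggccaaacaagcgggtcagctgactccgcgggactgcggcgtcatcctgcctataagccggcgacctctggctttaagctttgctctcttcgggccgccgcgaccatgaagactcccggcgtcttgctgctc

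Fgf13 was lower in each knockout library than in each control library of ieWAT, isWAT, sWAT and BAT, with log2 changes of -0.70, -0.83, -0.83 and -2.13, and none of these passed limma's test over all genes (adjusted p from 0.179 to 1.00) or edgeR's. Of all genes tested 1.68%, 19.4%, 12.3% and 38.1% lay lower without overlap in these sets, in the same order. In BAT Fgf13 had 4 and 28 reads in the knockout libraries, against 140, 48 and 336 in the controls. With DESeq2 on the recovered reads Fgf13 passed in isWAT (adjusted p = 1.02e-05) and in BAT (adjusted p = 0.0258). In eWAT it was not lower (0.19, SE 0.28, adjusted p = 0.677; -0.09 without the third control library), so directions there rest on the labels, and those libraries are called the libraries labelled knockout. The libraries held from 29857189 to 43624353 reads in ieWAT, from 37700750 to 48812592 in isWAT, from 13490948 to 21241811 in sWAT and from 14951333 to 21246286 in BAT, and is unknown for eWAT. Values are counts per 1000000 reads (CPM) in these 4 sets and FPKM, which also divides by transcript length, in eWAT. Each log2 change is the knockout mean minus the control mean of log2(value + 1), as limma gives it with a standard error (SE), and it understates the change of low genes. The labelled tissues carried their defining markers: Adipoq averaged from 777 CPM in BAT to 2931 CPM in sWAT control libraries, and the brown fat uncoupling protein Ucp1 averaged 5992 CPM in BAT and at most 4.16 CPM in the 3 white CPM sets. Among the libraries, skeletal muscle genes stood high in the second and the third sWAT knockout library and in 3 of 5 BAT libraries. Changes were tested within each table only, since the tables were normalised separately.

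In control fat the markers were highest in the epididymal set (ieWAT). Among the 4 CPM sets, 9 of 10 had their highest control mean in ieWAT, and in each of these 9 all 3 ieWAT control libraries lay above all control libraries of sWAT, the set with the next highest mean. The ratio of the ieWAT to the sWAT mean was 9.22 for Spp1, 7.48 for Gpnmb, 6.58 for Trem2 and 5.77 for Itgax. It was smaller for Atp6v0d2 (4.13), Mmp12 (3.76), Lgals3 (3.21), Cd9 (2.55) and Ctsd (1.59). Fabp5 was the exception: its control means were 439 CPM in sWAT, 419 in isWAT, 353 in ieWAT and 107 in BAT. Below ieWAT the order of the other 9 was sWAT, isWAT and BAT, but sWAT and isWAT control libraries overlapped for Trem2, Gpnmb, Spp1, Itgax, Ctsd and Fabp5, and isWAT and BAT libraries overlapped for Trem2, Gpnmb, Spp1, Atp6v0d2 and Mmp12. These orders set levels side by side across tables and were not tested. Only eWAT allows levels of different genes to be compared per length. In its control libraries mean FPKM went, from high to low, in the order Ctsd (4079), Lgals3 (3124), Mmp12 (2406), Gpnmb (1614), Trem2 (573), Fabp5 (519), Cd9 (397), Atp6v0d2 (219.6), Spp1 (183) and Itgax (173). Neighbours in that order overlapped between libraries except Gpnmb over Trem2 and Cd9 over Atp6v0d2.

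**Figure D1:**
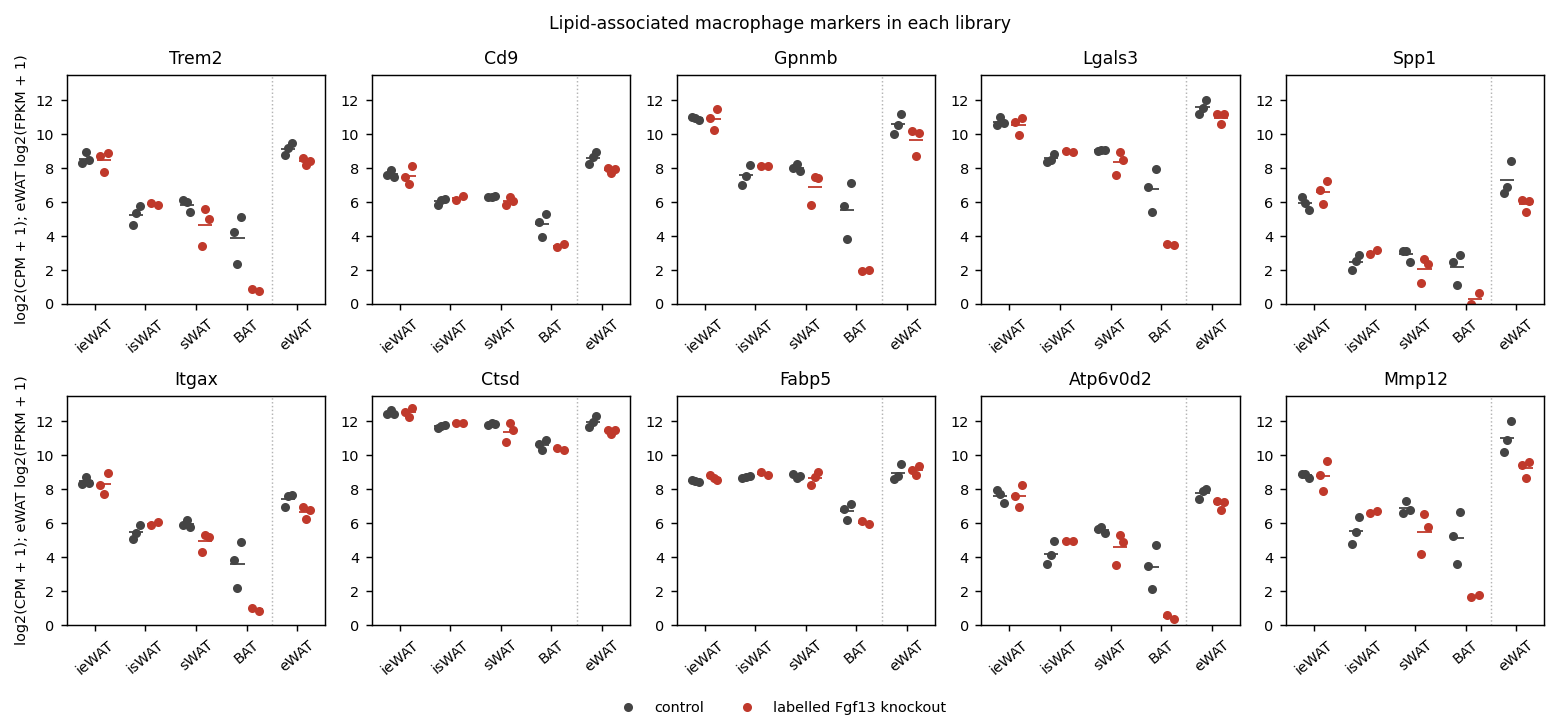
Level of each marker in each library, as log2(CPM + 1) for ieWAT, isWAT, sWAT and BAT and as log2(FPKM + 1) for eWAT (right of the dotted line), with 1 point per library and a bar at the group mean of the log2 values. Control levels of 9 of the 10 markers are highest in ieWAT among the CPM sets. The 2 BAT knockout libraries lie below the 3 BAT control libraries for 9 of 10, as for 38.1% of all BAT genes tested. Of these 9, Trem2, Spp1, Itgax and Atp6v0d2 passed the filter through the BAT controls alone and had to differ.

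In subcutaneous fat with inducible knockout (isWAT), all 10 markers had higher means in the knockout libraries, and for 8 of 10 both knockout libraries lay above all 3 control libraries, a pattern shown by 12.2% of all 14258 genes tested. A change above 0 was found in 43.9% of genes. No marker passed limma's test after Benjamini-Hochberg adjustment (smallest adjusted p = 0.324, beside 0.00701% of genes called), and 1 had an unadjusted p under 0.05, as did 3.98% of genes in that direction. Tests with edgeR and DESeq2 on the recovered reads also called 0 markers. The log2 changes ran from 0.19 to 1.13 with a median of 0.54, beside a median of -0.03 over all genes tested. Whether more cells of this kind or more RNA per cell lies behind a level cannot be told apart in bulk tissue. The receptor Trem2 stood at 23.8, 40.1 and 52.4 CPM in the control and 59.7 and 55.3 CPM in the knockout libraries. The glycoprotein Gpnmb stood at 127, 181 and 289 CPM in the control and 277 and 280.2 CPM in the knockout libraries, and the third control library was above both knockout libraries. Itgax stood at 33.1, 40.9 and 58.63 CPM in the control and 58.65 and 65.2 CPM in the knockout libraries, and there the third control library nearly reached the lower knockout library. The tetraspanin Cd9, at 55.2, 68.3 and 71.05 CPM in the control and 69.9 and 79.6 CPM in the knockout libraries, was the other marker with overlap. Across the surface proteins the first control library was the lowest and the third was the highest of the controls.

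For the secreted and lysosomal markers of isWAT, too, the first control library was the lowest and the third the highest control. Lgals3, the galectin, stood at 333, 359.8 and 459 CPM in the control and 518 and 499 CPM in the knockout libraries, a log2 change of 0.42 (SE 0.14) and the smallest p among the markers. Osteopontin (Spp1) was scarce, at 2.96, 4.66 and 6.41 CPM in the control and 6.55 and 8.19 CPM in the knockout libraries. The elastase Mmp12 had the largest change, 1.13 (SE 0.50), from 26.4, 43.7 and 80.5 CPM in the control and 95.4 and 106 CPM in the knockout libraries. The first control library stood lowest for Mmp12, and without it the change was 0.75. Leaving out that library also moved Trem2 to 0.32, Cd9 to 0.0976, Gpnmb to 0.29, Spp1 to 0.36, Itgax to 0.33 and Atp6v0d2 to 0.45. The proton pump subunit Atp6v0d2 stood at 10.95, 16.1 and 29.6 CPM in the control and 30.3 and 30.4 CPM in the knockout libraries, with the knockout libraries just above the highest control. Its widely expressed paralogue Atp6v0d1 averaged 162 ± 3.18 and 169.9 ± 3.59 CPM (n = 3 and 2). Ctsd stood at 3123, 3338 and 3477 CPM in the control and 3802 and 3859.6 CPM in the knockout libraries, a small difference between separate groups. Fabp5, the fatty acid carrier, stood at 406, 414 and 438 CPM in the control and 515 and 445 CPM in the knockout libraries. Its adipocyte paralogue Fabp4 averaged 9063 ± 1018 and 11479.9 ± 320.5 CPM. Without the first control library the median change of the 10 markers was 0.32, against 0.77 without the third.

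Other macrophage genes of isWAT did not all go the way of the lipid-associated markers, and 0 genes of these lists passed limma's test there. Of 12 resident macrophage genes 11 were tested, and 10 had lower means in the knockout libraries, as did 56.1% of all genes (median log2 change -0.37). Without overlap 3 lay lower, beside 19.4% of genes. The 2 of smallest p were the scavenger receptor Stab1 at 196 ± 2.70 and 152 ± 7.19 CPM and the lectin Mgl2 at 32.5 ± 5.50 and 21.6 ± 0.679 CPM (n = 3 and 2). Lyve1 overlapped, at 6.55, 6.49 and 5.70 CPM in the control and 2.02 and 8.29 CPM in the knockout libraries. Mrc1 overlapped too, at 71.2, 64.3 and 84.1 CPM in the control and 48.8 and 72.9 CPM in the knockout libraries. The summed level of the 12 genes was 540.3 to 580.5 CPM in control and 411 to 489.8 CPM in knockout libraries. The 16 pan-macrophage genes summed to 1284 to 1473 and 1454 to 1644 CPM, which overlap, and 12 had changes above 0 and 4 below. Without overlap 4 were higher and 3 lower, beside 12.2% and 19.4% of genes. Among these stood Lyz2, lysozyme, at 379 ± 47.99 and 491 ± 24.8 CPM and Cd68 at 95.7 ± 19.5 and 119 ± 0.152 CPM, and on the lower side the receptor Csf1r, chosen after its values were seen, at 173 ± 3.39 and 159.6 ± 14.2 CPM. Lysosomal genes outside the list (19) summed to 10047 to 11066 CPM in control and 11739.6 to 12179 CPM in knockout libraries, which do not overlap. Of them 8 were higher in both knockout libraries than in all controls and 1 lower, beside the same 12.2% and 19.4% of genes. The cathepsin Ctss averaged 104 ± 29.6 and 160.4 ± 2.06 CPM and the cholesterol carrier Npc2 889 ± 56.5 and 1099 ± 65.3 CPM. Tyrobp, the signalling partner of Trem2, averaged 55.3 ± 7.16 and 67.2 ± 1.36 CPM. The mean log2 level of the 10 markers exceeded that of the pan-macrophage genes by 0.76, 1.13 and 1.35 in the control and by 1.55 and 1.49 in the knockout libraries. Of 8 endothelial genes all 8 had lower means in the knockout libraries, and their sum was 2346 to 2627 CPM in the control and 2073 to 2164 CPM in the knockout libraries. The 12 adipocyte genes summed to 34294 to 35832 CPM in the control and 36374 to 36876 CPM in the knockout libraries, without overlap, with 6 changes above and 6 below 0. The part of these cell type lists in the result was not tested.

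In epididymal fat with inducible knockout (ieWAT), the levels of 9 markers were the highest of the CPM sets, and the groups overlapped for all 10. Of all 14749 genes tested 3.43% lay higher and 1.68% lower in the knockout libraries without overlap. The log2 changes ran from -0.18 to 0.65, 3 above and 7 below 0 (55.8% and 44.2% of all genes), with a median of -0.04 beside 0.02 over all genes tested. Called markers were 0 by limma, edgeR and DESeq2, and limma called 0% of genes. At an unadjusted p under 0.05 limma had 0 markers, beside 2% of genes higher and 0.617% lower. Trem2 stood at 311, 482 and 349 CPM in the control and 413, 219.6 and 479.7 CPM in the knockout libraries. Gpnmb stood at 2056, 1964 and 1825 CPM in the control and 1988, 1185 and 2790.4 CPM in the knockout libraries, and Mmp12 stood at 478, 472 and 408 CPM in the control and 456, 238 and 798 CPM in the knockout libraries. In each of these genes the knockout libraries spread wider than the controls, with the second the lowest and the third the highest of them. Spp1 had the change farthest from 0, 0.65 (SE 0.35), from 78.4, 60.8 and 46.04 CPM in the control and 103, 57.6 and 147 CPM in the knockout libraries. Fabp5 stood at 370.4, 349.6 and 339.97 CPM in the control and 446, 394 and 365 CPM in the knockout libraries. For the other 9 markers the second knockout library was the lowest of the 3, and for Fabp5 the third was.

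Genes of macrophages in general spread over the ieWAT knockout libraries in the same order. The pan-macrophage mean log2 level was 7.60, 7.84 and 7.38 in the control and 7.49, 6.97 and 7.95 in the knockout libraries, and that of the 10 markers was 8.98, 9.11 and 8.80 in the control and 9.06, 8.42 and 9.48 in the knockout libraries. Both are lowest in the second and highest in the third knockout library. Without the second knockout library the median change was 0.22, and without the third it was -0.35, so its sign turned with 1 library. The part of macrophage content in these values was not tested.

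In subcutaneous fat with constitutive knockout (sWAT), all 10 markers had lower means in the knockout libraries, and for 5 of 10 (Gpnmb, Lgals3, Itgax, Atp6v0d2 and Mmp12) all 3 knockout libraries lay below all 3 controls, as did 12.3% of the 13816 genes tested. A change below 0 was found in 62.8% of genes. No marker passed limma's test (smallest adjusted p = 0.447, beside 0.0217% of genes called), 1 had an unadjusted p under 0.05 beside 7.72% of genes in that direction, and edgeR and DESeq2 called 0. The median log2 change was -0.93 beside -0.05 over all genes tested. Itgax stood at 59.3, 71.7 and 54.6 CPM in the control and 18.8, 38.9 and 35.3 CPM in the knockout libraries, a change of -1.03 (SE 0.28) and the smallest p. Trem2 stood at 68.5, 62.4 and 42.4 CPM in the control and 9.47, 46.5 and 31.1 CPM in the knockout libraries, and the second knockout library lay above the lowest control. Gpnmb stood at 256, 298 and 228 CPM in the control and 55.7, 179 and 169 CPM in the knockout libraries. For these 3 genes the first knockout library was the lowest of all 6. Cd9 was nearer to the controls, at 79.00, 77.3 and 81.6 CPM in the control and 54.9, 77.9 and 66.2 CPM in the knockout libraries.

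The first sWAT knockout library was also lowest for the secreted and lysosomal markers. Mmp12 had the change farthest from 0, -1.39 (SE 0.63), from 97.3, 155 and 109 CPM in the control and 17.5, 92.3 and 53.1 CPM in the knockout libraries. Lgals3 stood at 519.8, 537 and 534 CPM in the control and 192, 483 and 358 CPM in the knockout libraries, and its controls lay within a narrow range. Atp6v0d2 stood at 48.9, 53.7 and 42.6 CPM in the control and 10.4, 37.8 and 28.98 CPM in the knockout libraries, and Spp1 at 7.72, 7.78 and 4.59 CPM in the control and 1.35, 5.30 and 4.15 CPM in the knockout libraries. The first knockout library was far below the others for both genes. Ctsd stood at 3472, 3774 and 3583 CPM in the control and 1718, 3729.5 and 2819 CPM in the knockout libraries, with the second knockout library inside the control range. Fabp5, at 482, 396 and 438 CPM in the control and 305, 415 and 509.7 CPM in the knockout libraries, had its highest value in the third knockout library and the change nearest to 0, -0.12 (SE 0.18). Without the first knockout library the median change of the 10 markers was -0.47, and 9 single changes moved by over 1.5 times, to -0.74 for Mmp12, -0.57 for Gpnmb, -0.56 for Trem2, -0.53 for Atp6v0d2, -0.40 for Spp1, -0.35 for Lgals3, -0.15 for Ctsd, -0.14 for Cd9 and 0.0730 for Fabp5.

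Of 16 pan-macrophage genes in sWAT 15 had lower means in the knockout libraries, beside 62.8% of all genes, and 2 lay lower without overlap, beside 12.3%. Past limma's test were 0, and 3 had an unadjusted p under 0.05, beside 7.72% of genes. The mean log2 level of the list was 6.35, 6.02 and 5.95 in the control and 5.21, 6.04 and 5.50 in the knockout libraries. Cd68, a lysosomal membrane protein of macrophages, averaged 141 ± 16.04 and 86.4 ± 38.3 CPM, and Adgre1, the gene of F4/80, 159.6 ± 44.8 and 87.7 ± 40.9 CPM (n = 3 each). Against this list the 10 markers stood higher by 0.79, 1.22 and 1.03 in the control and by 0.28, 0.82 and 1.06 in the knockout libraries, which overlap. Of 12 resident macrophage genes 5 had changes above 0 and 7 below, with a median of -0.08. Among them Mgl2 (38.00 ± 5.71 and 64.7 ± 9.55 CPM) and the haemoglobin scavenger receptor Cd163 (24.7 ± 7.01 and 38.5 ± 2.93 CPM) were higher in each knockout library than in each control, as were 3.8% of genes, and neither passed. The second and the third knockout library, and not the first, held skeletal muscle RNA: the mean log2 level of 8 muscle genes was 0.98, 0.91 and 0.82 in the control and 0.83, 7.02 and 7.42 in the knockout libraries. Of 8 endothelial genes all 8 had lower means in the knockout libraries, beside 62.8% of all genes, and 6 lay lower without overlap, beside 12.3%. The sum of the 8 was 1529.7 to 1531 CPM in the control and 1131 to 1424 CPM in the knockout libraries. The part of muscle RNA and of macrophage and endothelial content in these values was not tested.

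**Figure D2:**
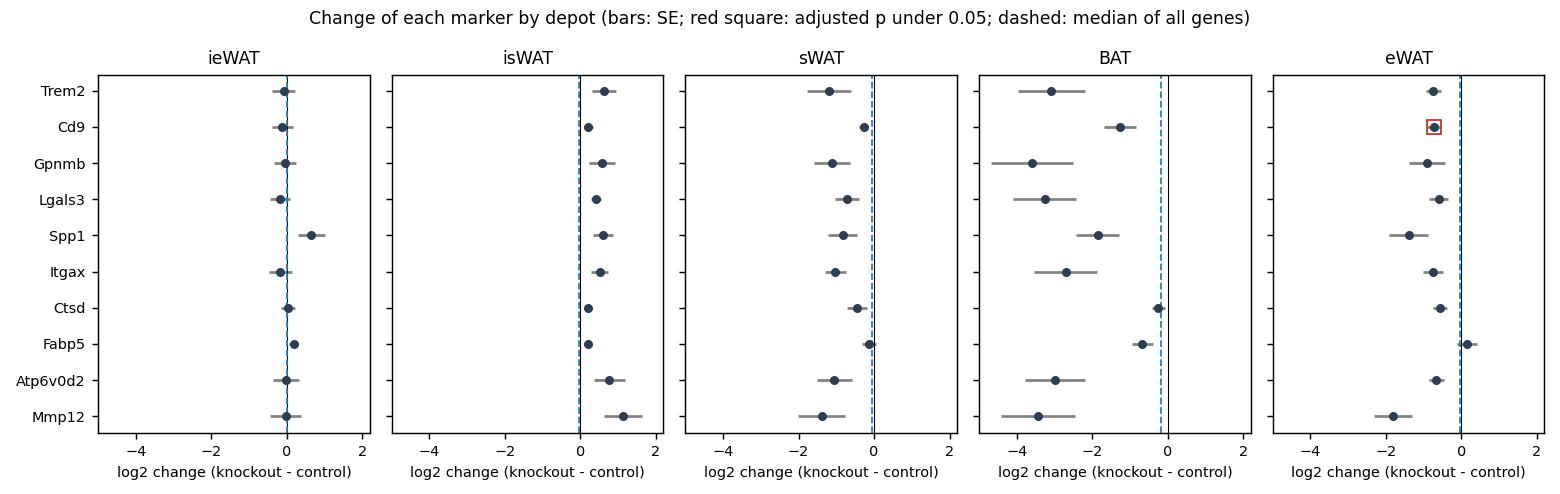
Log2 change of each marker (limma, knockout mean minus control mean of log2(value + 1)) in each of the 5 sets (panels), with the standard error as bars and the median of all genes as a dashed line. The 10 markers are all right of 0 in isWAT, all left of 0 in sWAT and BAT and around 0 in ieWAT, and Cd9 in eWAT, in a red square, has the adjusted p of 0.0463.

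Brown fat with constitutive knockout (BAT) had the lowest control means of the CPM sets and, for 9 markers, the log2 change farthest from 0 of the 5 sets. All 10 markers had lower means in the knockout libraries, and for 9 of 10, Ctsd being the exception, both knockout libraries lay below all 3 controls. That arrangement was common in BAT, where 38.1% of all 13253 genes tested showed it and 76.4% had a change below 0. No marker passed limma's test (smallest adjusted p = 0.237, beside 0.00755% of genes called), while 8 had an unadjusted p under 0.05, as did 16.8% of genes in that direction. In 4 markers (Trem2, Spp1, Itgax and Atp6v0d2) both knockout libraries were under 1 CPM, so these passed the filter through the controls alone and had to differ, and the counts and the median of the list are a description. The median log2 change was -2.84 beside -0.18 over all genes tested. Under TMM scaling the median over all BAT genes was 0.00 and that of the markers -2.72.

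Gpnmb, the glycoprotein, stood at 53.8, 12.9 and 135 CPM in the control and 2.83 and 3.01 CPM in the knockout libraries, a log2 change of -3.59 (SE 1.09) and the lowest of the 10. Trem2 stood at 17.8, 4.08 and 33.9 CPM in the control and 0.861 and 0.669 CPM in the knockout libraries, with 14 and 10 reads in the knockout libraries against 65 to 646 in the controls. Itgax stood at 13.04, 3.57 and 28.1 CPM in the control and 0.984 and 0.803 CPM in the knockout libraries. For all 3 genes the second control library lay far below the other controls, and still above both knockout libraries. Cd9 differed less, at 27.2, 14.1 and 38.4 CPM in the control and 9.05 and 10.4 CPM in the knockout libraries (log2 change -1.26, SE 0.42). For the galectin and the secreted markers the second control library was again the lowest control. Lgals3 stood at 119, 41.2 and 246 CPM in the control and 10.5 and 9.97 CPM in the knockout libraries, with a change of -3.26 (SE 0.83). Spp1 stood at 4.57, 1.19 and 6.45 CPM in the control and 0 and 0.535 CPM in the knockout libraries, where 0 and 8 reads were counted in the knockout libraries, so the first of them allows up to 3 reads. The elastase Mmp12 stood at 36.8, 11.04 and 97.8 CPM in the control and 2.09 and 2.47 CPM in the knockout libraries (log2 change -3.44, SE 0.98).

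The lysosomal markers of BAT had changes of unequal size, a difference that was not tested. Atp6v0d2, the proton pump subunit, stood at 10.4, 3.32 and 25.4 CPM in the control and 0.492 and 0.268 CPM in the knockout libraries (log2 change -2.99, SE 0.80), whereas its paralogue Atp6v0d1 averaged 64.2 ± 11.8 and 48.2 ± 0.849 CPM (-0.39). Ctsd, the protease, stood at 1624, 1273 and 1859 CPM in the control and 1359 and 1283 CPM in the knockout libraries, which overlap, and its change of -0.25 (SE 0.18) was near the median of all genes and -0.04 under TMM scaling. Fabp5 stood at 114, 71.9 and 136 CPM in the control and 68.5 and 60.5 CPM in the knockout libraries (log2 change -0.68, SE 0.28), beside Fabp4 at 6369.6 ± 574 and 6129.5 ± 496 CPM. Ctsd and Fabp5 were the markers least far from 0. The controls differed widely: Gpnmb was 10.5 times and Trem2 8.31 times as high in the highest as in the lowest control library, and Ctsd 1.46 times. Leaving out 1 control library moved Ctsd between -0.40 (without the second) and -0.12 (without the third). Without the second control library, the lowest for all 10 markers, limma called 9 of 10 (all but Ctsd) beside 15.7% of genes in that direction. On the recovered reads DESeq2 called 8, beside 4% of genes in that direction, and edgeR called 0. Both the 9 and the 8 include Trem2, Spp1, Itgax and Atp6v0d2, which passed the filter through the controls alone and had to differ. These counts are therefore a description.

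Macrophage genes in general had lower means in the BAT knockout libraries. Of 16 pan-macrophage genes 14 lay lower without overlap, beside 38.1% of all genes, with 0 past limma's test and 13 at an unadjusted p under 0.05, beside 16.8%. Cd68 averaged 48.03 ± 32.01 and 5.38 ± 0.815 CPM, Adgre1 59.6 ± 37.9 and 6.22 ± 0.00395 CPM and Tyrobp 39.4 ± 23.4 and 4.95 ± 0.655 CPM (n = 3 and 2). The mean log2 level of the list was 5.07, 3.65 and 5.37 in the control and 2.96 and 2.82 in the knockout libraries, and that of the 10 markers was 5.43, 4.10 and 6.25 and 2.94 and 2.96. On the same scale and in the same order of groups, resident macrophage genes stood at 3.21, 2.98 and 3.78 and 2.12 and 2.40, and fibroblast and progenitor genes at 5.93, 5.18 and 6.50 and 4.50 and 5.00, lower in the knockout libraries without overlap. Muscle genes stood at 5.24, 6.79 and 0.59 and 0.15 and 9.06, with no common direction. Endothelial genes summed to 981 to 1169 CPM in the control and 867 to 893 CPM in the knockout libraries. Brown adipocyte genes overlapped, with Ucp1 at 5992 ± 1126 and 5772 ± 1162 CPM. The part of these other lists in the marker values was not tested.

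In the further epididymal set (eWAT), Cd9 was lower in the libraries labelled knockout, and it was the 1 marker of 10 past limma's test. It stood at 301, 402 and 488 FPKM in the control and 258, 205 and 242 FPKM in the libraries labelled knockout, without overlap, a log2 change of -0.73 (SE 0.19) with an adjusted p of 0.0463 (limma, Benjamini-Hochberg). This set has many differences: limma called 14.9% of all 13736 genes tested, of which the lower ones make 4.7% of the genes tested. Of the 10 markers 9 had lower means in the libraries labelled knockout, beside 53.6% of genes. Without overlap 7 of 10 lay lower (Trem2, Cd9, Lgals3, Spp1, Ctsd, Atp6v0d2 and Mmp12) beside 19.6% of genes, and the median log2 change was -0.74 beside -0.02 over all genes. Cd9 did not pass when any one of 5 of the 6 libraries was left out (adjusted p from 0.0802 to 0.140). Without the first control library it did pass and 6 markers were called, beside 4.68% of genes in that direction. At a threshold of 0.1 limma called 6 (Trem2, Cd9, Itgax, Ctsd, Atp6v0d2 and Mmp12), beside 10.8% of genes in that direction. A further deposited table, in TPM, has columns named for the same 6 samples. There the median change of the markers was 1.16 beside 0.65 over all genes, and 0 markers passed. Of the 9 lower markers 6 had changes above 0 there, 5 of them above the median of all genes and Mmp12 (0.23) below it. The direction of these 5 in eWAT depends on which deposited table is read. FPKM and TPM of 1 library differ by a factor shared by all its genes. Such a factor cannot move these markers from below the median of all genes to above it. Both tables therefore cannot hold the same quantification under the same sample names, and which of them is right is not known.

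Among the other surface and membrane markers of eWAT none passed. Trem2 stood at 436, 569 and 715 FPKM in the control and 385, 293 and 336 FPKM in the libraries labelled knockout (log2 change -0.74, SE 0.20, limma adjusted p = 0.0510). Itgax stood at 121, 194 and 204 FPKM in the control and 122, 74.5 and 108 FPKM in the libraries labelled knockout (limma adjusted p = 0.0945), with the lowest control between 2 libraries labelled knockout. Gpnmb stood at 1024, 1493 and 2324 FPKM in the control and 1172, 423 and 1074 FPKM in the libraries labelled knockout and overlapped (log2 change -0.91, SE 0.47, limma adjusted p = 0.228, and -0.44 without the second library labelled knockout). For all 4 surface and membrane markers the third control library was the highest and the second library labelled knockout the lowest of 6. Mmp12 had the change farthest from 0, -1.80 (SE 0.51, limma adjusted p = 0.0630), from 1143, 1889 and 4186 FPKM in the control and 684, 399.5 and 774 FPKM in the libraries labelled knockout. Spp1 stood at 92.7, 117 and 339.9 FPKM in the control and 69.5, 41.99 and 66.97 FPKM in the libraries labelled knockout (log2 change -1.40, SE 0.52), where the third control library stood far above the rest, and without it the change was -0.83. Both genes were highest in the third control library. Lgals3 stood at 2329.7, 2943 and 4099 FPKM in the control and 2322, 1509.6 and 2280.2 FPKM in the libraries labelled knockout, and its groups were separated by a narrow gap (log2 change -0.60, SE 0.26, and -0.39 without the third control library).

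The lysosomal markers of eWAT had lower means and the lipid carrier Fabp5 a higher one. Atp6v0d2, the pump subunit, stood at 172, 232 and 255 FPKM in the control and 158, 107 and 148 FPKM in the libraries labelled knockout (log2 change -0.67, SE 0.20, limma adjusted p = 0.0670), and Atp6v0d1 averaged 124 ± 11.1 and 120.2 ± 4.38 FPKM (n = 3 each). Ctsd stood at 3171, 3930.00 and 5137 FPKM in the control and 2805, 2455 and 2887 FPKM in the libraries labelled knockout (log2 change -0.56, SE 0.19, limma adjusted p = 0.0927). Fabp5 alone had a higher mean, at 390.2, 441 and 725 FPKM in the control and 558, 461 and 665 FPKM in the libraries labelled knockout (log2 change 0.15, SE 0.25), with overlap and a change of -0.0272 without the first control library. Its paralogue Fabp4, an adipocyte gene, rose from 6213 ± 645 to 13522 ± 2063 FPKM (limma adjusted p = 0.0128).

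Counts for genes of the surrounding pathway in eWAT stand beside 4.7% of all genes lower and 10.2% higher past limma's test. Of 9 Trem2 signalling partners 4 were lower past the test and 0 higher: the phosphatase Inpp5d (-0.67, limma adjusted p = 0.0200), the adaptors Hcst (-0.66) and Tyrobp (1272 ± 243 to 811 ± 93.9 FPKM) and Ms4a7 (-0.84). Of 19 lysosomal genes 4 were lower and 0 higher, namely the lysosomal acid lipase Lipa (-0.81), the ceramidase Asah1 (-0.48) and the transcription factors Mitf (-0.70) and Tfeb (-0.47). Among 14 proton pump genes Atp6ap2 fell by 0.56 on the log2 scale and 0 rose. Among 7 osteopontin and galectin partners Cd44, the osteopontin receptor, and the integrin chains Itga4 and Itgb3 were lower (-0.72, -0.81 and -0.58), and the galectin Lgals1 was higher (0.60). Of 10 foam cell and lipid efflux genes 1 was lower, the scavenger receptor Msr1 (-0.80), and 1 higher, the sterol sensor Nr1h3 (0.46), shares near those of all genes. Of 6 fusion genes tested 1 was lower, Dcstamp (-0.88), and 1 higher, the phosphatase Acp5 (0.61). Each gene named here passed limma's test over all genes in the main fit. Genes called over the whole set fell from 2041 to 12 without the third library labelled knockout.

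Macrophage and adipocyte genes as a whole differed in opposite directions in eWAT, by the labels and the FPKM values of all 6 libraries. Limma's calls over all genes fell from 2041 to 12 without the third library labelled knockout. Values of these lists in that fit and in TPM are not given here. Of 16 pan-macrophage genes 9 were lower past the test, beside 4.7% of genes, and 0 higher, among them the efferocytosis receptor Mertk (-0.72) and the complement chains C1qc (-0.70) and C1qb (-0.58), and Adgre1 fell from 339 ± 56.5 to 213 ± 28.7 FPKM (limma adjusted p = 0.0391). All 12 adipocyte genes were higher past the test, beside 10.2% of genes, with Adipoq, adiponectin, at 571 ± 143 and 1431 ± 122 FPKM, and their sum was 7702 to 10031 FPKM in the control and 18348 to 23092 FPKM in the libraries labelled knockout. Of 12 resident macrophage genes 2 were lower (Stab1 and Mrc1) and 2 higher (F13a1 and Cbr2). The mean log2 level of the 10 markers exceeded that of the pan-macrophage genes by 1.43, 1.85 and 2.34 in the control and by 1.80, 1.36 and 2.00 in the libraries labelled knockout, and the groups overlapped. The part of adipocyte and macrophage content in the marker values was not tested.

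**Figure D3:**
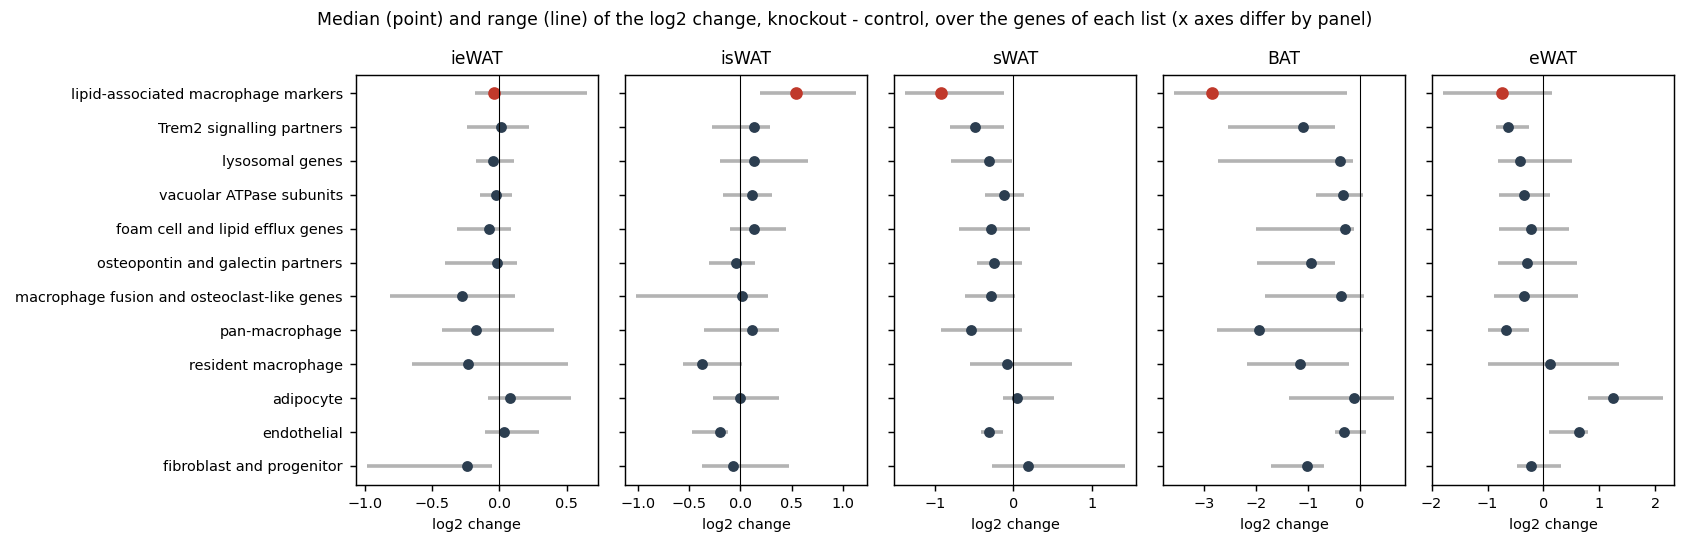
Median (point) and range (line) of the log2 change, knockout minus control, over the genes tested of each list, with the lipid-associated markers in red and 1 panel per set, each with its own x axis. In eWAT the adipocyte list lies right of 0 and the pan-macrophage list left of it, and in isWAT the resident macrophage median is -0.37 while that of the lipid-associated markers is 0.54.

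Within groups the markers moved together from library to library. Over the 22 CPM libraries, with each gene centred on the mean of its own set and genotype, each marker was correlated with the mean of the other 9. The coefficient was highest for Gpnmb (0.985), Atp6v0d2 (0.974) and Mmp12 (0.973), and lowest for Cd9 (0.898), Ctsd (0.847) and Fabp5 (0.725). Without the 2 libraries farthest from the centre, the second and the third BAT control, it was 0.976 for Gpnmb and 0.442 for Fabp5. Points of 1 library share its depth and its cell content, so these values describe the libraries and carry no test. Outside the list, 10 genes followed the mean of the markers most closely out of 12452 ranked: the protease Adam8 (0.989), the macrophage glycoprotein Cd68 (0.984), the sugar phosphate transporter Slc37a2 (0.979), the phagosomal metal transporter Slc11a1 (0.978), the inhibitory receptor Cd300a (0.977), Ctss (0.976), the hexokinase Hk3 (0.975), the myosin Myo1f (0.973), the receptor Cd84 (0.972) and the actin regulator Nckap1l (0.970). A coefficient above 0.5 was common, at 18.8% of the genes ranked. In the 6 eWAT libraries, which the ranking did not use, the same coefficient ran from 0.752 for Slc37a2 to 0.997 for Adam8.

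**Figure D4:**
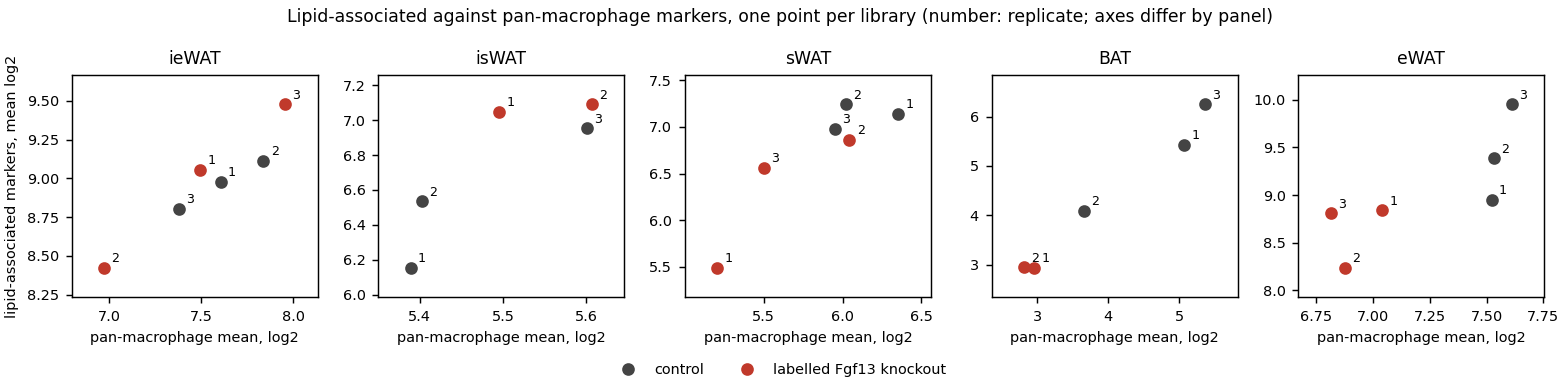
Mean log2 level of the 10 markers (vertical) against that of 16 pan-macrophage genes (horizontal) in each library, with replicate numbers beside the points, 1 panel per set and axes that differ by panel. In ieWAT the second knockout library is lowest and the third highest on both axes, and in isWAT the first knockout library has a pan-macrophage mean of 5.50, between the controls, with a marker mean above all of them.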

How the data were processed

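RNA from mouse fat was sequenced in 28 libraries. Salmon, FastQC, MultiQC and DESeq2 1.38.3 are named, without roles, per the submitters' processing notes, and the genome build is not given in the sources used here. The 4 deposited tables of ieWAT, isWAT, sWAT and BAT are named as FPKM, but their values are CPM without division by length: whole reads were recovered from them for 99.99% to 100% of values (tolerance 0.01 reads). The deposited eWAT table holds FPKM, and a deposited raw count table of those samples by name holds TPM by its values and served as an alternative only. Another 6 columns of samples, in a last deposited table, were not used. Symbols came from GENCODE M21 by unversioned identifier (92.0% matched, 96.0% in ieWAT). In each set limma 3.58.1 (R 4.3.3; trend and robust, two-sided) was fitted to log2(value + 1) over genes that reached 1 in at least the number of libraries of the smaller group, with Benjamini-Hochberg adjustment at 0.05. edgeR 4.0.16 and DESeq2 1.42.0 were run on the recovered reads. The limma fit was also run on simulated data, with the outcome not given here. For eWAT that simulation treated scaled FPKM as counts. Counting reads that Fabp5 shares with its near-identical copies could shift its level, since the counting of shared reads is not given. The 10 markers, the 22 other lists and the tests were chosen with earlier results of these data known. Genes named are the markers, Fgf13, genes of a list past the threshold (up to 4 by p) or else its 2 genes of smallest p, fixed defining genes and paralogues, and the 10 genes most like the markers. Of these, the genes that bear on the markers are printed. Alternatives were other scalings, filters, pseudocounts, thresholds and tests, the replicate block and leaving out each library.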

Additional observations from a re-analysis of the deposited data

Results flagged for a closer look

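Of the 10 markers 8 showed opposite directions between sets, in that each isWAT knockout library lay above each isWAT control while each knockout library of at least 1 other set lay below each of its controls. Of all 14258 genes tested in isWAT 5.21% showed that pattern, 0.905% with sWAT, 4.17% with BAT and 1.91% with eWAT as the lower set. In BAT, Trem2, Spp1, Itgax and Atp6v0d2 passed the filter through the controls alone and had to differ. The count of 8 is therefore a description. Apart from BAT, the only lower set for Trem2 and Spp1 was eWAT. For Trem2 the log2 change was 0.63 in isWAT and -3.08 in BAT and -0.74 in eWAT. For Lgals3 the log2 change was 0.42 in isWAT and -0.72 in sWAT, -3.26 in BAT and -0.60 in eWAT. For Spp1 the log2 change was 0.60 in isWAT and -1.86 in BAT and -1.40 in eWAT. For Itgax the log2 change was 0.51 in isWAT and -1.03 in sWAT and -2.70 in BAT. For Ctsd the log2 change was 0.21 in isWAT and -0.56 in eWAT. For Fabp5 the log2 change was 0.19 in isWAT and -0.68 in BAT. For Atp6v0d2 the log2 change was 0.77 in isWAT and -1.05 in sWAT, -2.99 in BAT and -0.67 in eWAT. For Mmp12 the log2 change was 1.13 in isWAT and -1.39 in sWAT, -3.44 in BAT and -1.80 in eWAT. The difference between the sets was not tested, since the tables were normalised separately. Both isWAT and sWAT are subcutaneous and differ in the type of knockout, and the markers of macrophages and muscle in their libraries differ too. BAT and eWAT differ from isWAT in depot as well. Which of these goes with the directions cannot be told apart. Without the first isWAT control the changes of Trem2, Spp1, Itgax, Atp6v0d2 and Mmp12 there were 0.32, 0.36, 0.33, 0.45 and 0.75, and without the first sWAT knockout library those of Lgals3, Atp6v0d2 and Mmp12 in sWAT were -0.35, -0.53 and -0.74. The isWAT change of Fabp5 ranged from 0.0878 to 0.30 leaving out 1 library. The eWAT directions rest on the labels, and in the TPM table of eWAT, where all genes had a median of 0.65, Trem2, Lgals3, Ctsd and Atp6v0d2 had changes above that median.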

How the results depend on the processing

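Of 819 marker changes recomputed under alternatives, 752 kept direction and side of the threshold, 28 turned sign, 31 newly passed and 8 no longer passed. The cause of these differences was not tested. In ieWAT the median of the markers (-0.04) was 0.0139 with edgeR and 0.00681 with DESeq2, and -0.35 to 0.22 leaving out 1 library. Single markers turned with edgeR (Gpnmb 0.00465, Atp6v0d2 0.0268, Mmp12 0.111) and DESeq2 (Atp6v0d2 0.0184, Mmp12 0.101). Leaving out 1 ieWAT library gave Trem2 -0.31 to 0.25, Cd9 -0.41 to 0.13, Gpnmb -0.34 to 0.28, Lgals3 -0.39 to 0.11, Itgax -0.50 to 0.12, Ctsd -0.11 to 0.18, Atp6v0d2 -0.35 to 0.32 and Mmp12 -0.45 to 0.42. The same range was -1.17 to -0.47 for the sWAT median, -0.30 to 0.0730 for sWAT Fabp5, -0.0272 to 0.42 for eWAT Fabp5 and -0.0914 to 0.43 for eWAT Fgf13. Markers called in BAT (0) were 8 with DESeq2 and 0 to 9 leaving out 1 library. Markers called in eWAT (1) were 0 without a filter, 2 with a filter at 5, 2 under TMM and 2 under median-of-ratios scaling, 0 with plain eBayes, 6 at a threshold of 0.1, 0 in the TPM table and 0 to 6 leaving out 1 library. In the TPM table the eWAT median was 1.16 beside 0.65 over all genes, with Trem2 at 1.27, Cd9 at 1.12, Lgals3 at 1.20, Ctsd at 1.36, Atp6v0d2 at 1.34 and Mmp12 at 0.23. Genes called over the whole table were 0, 1, 3, 1 and 2041 in ieWAT, isWAT, sWAT, BAT and eWAT, against 32, 273, 52 and 791 with DESeq2 in the first 4, up to 120 in sWAT and 2201 in BAT leaving out 1 library, and from 12 to 1819 in eWAT. With edgeR they were 0, 1, 1 and 0, and without a filter 544 in eWAT, 7 in BAT, 5 in sWAT and 3 in isWAT. In eWAT a threshold of 0.1 gave 3618 and the TPM values gave 1. A pseudocount of 0.1 gave 5 in sWAT and 0 in BAT, a filter at 5 gave 0 in BAT, and plain eBayes gave 0 in isWAT and BAT. Where 2 knockout libraries entered, leaving out 1 assumes that the lone library varies like the others. Depth limits Spp1, Trem2, Itgax and Atp6v0d2 in the BAT knockout libraries, where few reads were counted. The BAT calls with DESeq2 and without the second control include these genes, which passed the filter through the controls alone.

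Replicate numbers are shared between groups. The deviations of same-numbered libraries from their group means had correlations from -0.56 to 0.39. Only knockout library 1 of ieWAT and 2 of BAT correlated best with the control of their own number. Group means of 2 or 3 libraries constrain such deviations, so whether a number stands for a pairing cannot be told from them. With the replicate block, markers called were 1 in isWAT (Mmp12, 1.54, adjusted p = 0.0234 with limma) and 0 in eWAT, and genes called over the whole table were 1, 7, 1, 0 and 0 in the same order. The third isWAT control, the highest control for Mmp12, has no knockout library of its number and drops out of the blocked change. Left out without a block, it gave the same 1.54.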

Other observations

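Of the 22 other lists, 0 genes passed limma's test in ieWAT, isWAT, sWAT or BAT. In eWAT genes of 13 other lists passed. Beside those given with the markers, 3 mast cell genes were lower in the libraries labelled knockout, among them the protease Cma1 at 314 ± 92.6 and 47.8 ± 49.3 FPKM. They were 3 of 8 neutrophil and mast cell genes tested, beside 4.7% of all genes called lower. Of 8 endothelial genes 5 were higher, beside 10.2% of all genes called higher, among them the cadherin Cdh5 at 43.4 ± 8.46 and 75.7 ± 9.93 FPKM. The chemokine Ccl3 was lower (-1.04) and the lectin Cd209a higher (0.92). Of the monocyte, T and NK cell, B cell, fibroblast, mesothelial, brown adipocyte, muscle, epithelial and erythroid genes tested in eWAT, 0 passed (limma, adjusted).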
